A study of Mus musculus with 12 samples.

Results

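The comparison described here sets hematopoietic stem cells of Romiplostim-treated against untreated mice that lack Thpo, the gene of the cytokine thrombopoietin. Of 35275 genes in the deposited table it covers 12140, those whose FPKM reached 1 in 3 or more of the 6 knockout libraries. FPKM is a fragment count scaled by gene length and by sequencing depth, so levels can be compared between genes. RNA was sequenced from stem cells sorted by flow cytometry from C57BL/6 mice, in 12 libraries of 4 groups of 3.

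The groups were Thpo-/- mice given Romiplostim for 10 days, untreated Thpo-/- mice, Thpo+/+ mice given Romiplostim for 10 days, and untreated Thpo+/+ mice. The daily intravenous dose of Romiplostim was 100 µg/kg. The treatment protocol names PBS for the controls, while their treatment label reads untreated. Neither the age of the mice nor the surface markers used for sorting is stated in the sources used here. The labels do not say that the replicates are separate animals, so the p-values measure only the spread between these samples.

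Thrombopoietin is made mainly in the liver and acts on megakaryocytes, platelets and stem cells. Its signal activates the kinase JAK2, which phosphorylates STAT5 and STAT3 and feeds the RAS-MAPK and PI3K-AKT pathways. STAT5 then switches on genes such as Cish and Socs2, whose products damp the same signal. In mice without thrombopoietin, platelets and stem cells are few. Romiplostim is a peptide fused to an antibody Fc part that sets off the same signal, so it can act where the ligand itself is missing.

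Thpo itself (mm10 chromosome 16, 20724454 to 20734511) stood at 0 FPKM in all 6 knockout libraries and in 4 of the 6 wild-type libraries, and at 0.0426 and 0.0208 FPKM in the other 2. Stem cells do not make this cytokine, so the value does not test the knockout. Stem cell markers were present in every knockout library. Kit, the stem cell factor receptor, had 88.2, 70.1 and 74.9 FPKM in treated and 131, 85.7 and 68.2 FPKM in untreated knockout libraries, and its groups overlapped. Depth, estimated from the steps of low values, was 27.7 to 35.6 M fragments, and the 3 libraries of a group shared 1 sequencing run, so run and treatment cannot be told apart.

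Markers of other blood and marrow cells were also present, and several lists were higher in the untreated knockout libraries. The summed level of 26 macrophage genes was 866 to 1160 FPKM in treated and 3060 to 6760 FPKM in untreated knockout libraries. That of 19 pro-B and pre-B genes was 127 to 796 against 2160 to 5340 FPKM, and that of 19 neutrophil granule genes was 3480 to 4800 against 8770 to 46600 FPKM. Sums of 3 more lists were also apart. The sum of 19 monocyte and dendritic genes was 442 to 925 against 1390 to 3510 FPKM. That of 14 mast cell, basophil and eosinophil genes was 60.8 to 154 against 266 to 1460 FPKM. That of 20 stromal genes was 19.4 to 46.9 against 228 to 916 FPKM. The following sums overlapped. Mature B and plasma cell genes had 1810 to 32400 in treated against 7460 to 12200 FPKM in untreated knockout libraries. Red cell genes had 3610 to 12500 against 6870 to 23700 FPKM. T and NK cell genes had 205 to 499 against 436 to 750 FPKM, and platelet genes 627 to 1230 against 614 to 1010 FPKM. The Y-linked genes also differed between the knockout groups. Their mean was 0.00537 to 0.0389 FPKM in the 3 treated and 11.3 to 24.9 FPKM in the 3 untreated knockout libraries. The labels do not state the sex of the mice, which may differ in the same way. Presence of Y-linked RNA and Romiplostim therefore cannot be told apart within the knockout, and a fit with this presence as a covariate draws on the wild-type groups, where it was mixed. Where that fit, or a fit that leaves out treated knockout replicate 2 and untreated knockout replicate 3, ends the call of a gene's knockout effect or interaction named below, its adjusted p or the count left in its list is given. Of 87 counts of called list members in the knockout, 72 moved with the covariate. A list count given alone comes from the fit without the covariate. The covariate reduced the interactions over all genes to 237, against 1899 without it. In a bulk sample, fewer cells of a type and less RNA per cell cannot be told apart.

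In the knockout 3750 of the 12140 genes (30.9%) differed between treated and untreated libraries at an adjusted p under 0.05 (limma on log2(FPKM + 1), Benjamini-Hochberg adjustment). Of these, 1315 rose (10.8% of the genes tested) and 2435 fell (20.1%). Here and below, rose and fell mean higher and lower in treated than in untreated libraries. The median log2 fold change was 0.74 among genes that rose, -0.80 among those that fell and -0.11 over all genes tested. At least 2-fold changes made up 297 of the rises and 935 of the falls. The 3 treated and 3 untreated libraries did not overlap, with treated higher, for 1826 genes (15%) and, with treated lower, for 3119 genes (25.7%).

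The balance of rises and falls depended on the scaling between libraries. It was 2401 rises to 1756 falls after quantile normalization, which moved the median of all genes by 0.17 on the log2 scale, and 1759 to 2084 with median-of-ratios scaling. With presence of Y-linked RNA as a covariate, 222 genes rose (1.83%) and 542 fell (4.46%). Without treated replicate 2 and untreated replicate 3, 1134 rose (9.34%) and 3140 fell (25.9%). Leaving out treated knockout replicate 3 alone gave 791 rises and 1600 falls.

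A total of 100 genes had at least 1 FPKM in all 3 treated and in none of the untreated knockout libraries, and 303 genes showed the reverse. The filter cut through genes of very low level. Just inside it stood BC016579, Dnd1 and Dmxl2, whose third-highest values were 1.0003, 1.0013 and 1.0014 FPKM. Just outside stood Adh1, Glt8d2 and Gas7, at 0.9963, 0.9954 and 0.9952 FPKM. Adh1 had 10.6 FPKM in untreated knockout replicate 3 and 0.214 to 1.49 FPKM in the other 5 knockout libraries, and was not tested. Lists named below lost members to the filter: 6 each from the stromal and immediate early lists, 5 endothelial genes, 4 each from the mature B, T and NK, mast cell and cytokine receptor lists, and 3 each from the S100 and STAT5 target lists. The platelet, fatty acid oxidation and NRF2 lists lost 2 each, and the mitochondrial ribosome, SOCS, stem cell regulator, red cell, pro-B, lysosome, replication, unfolded protein and mitochondrially encoded lists lost 1 each. Another 2 names of the mature B list and 1 of the mitochondrial ribosome list matched no symbol. A gene that passes only through the group where it is high had to differ, so a count describes only the genes tested.

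**Figure D1:**
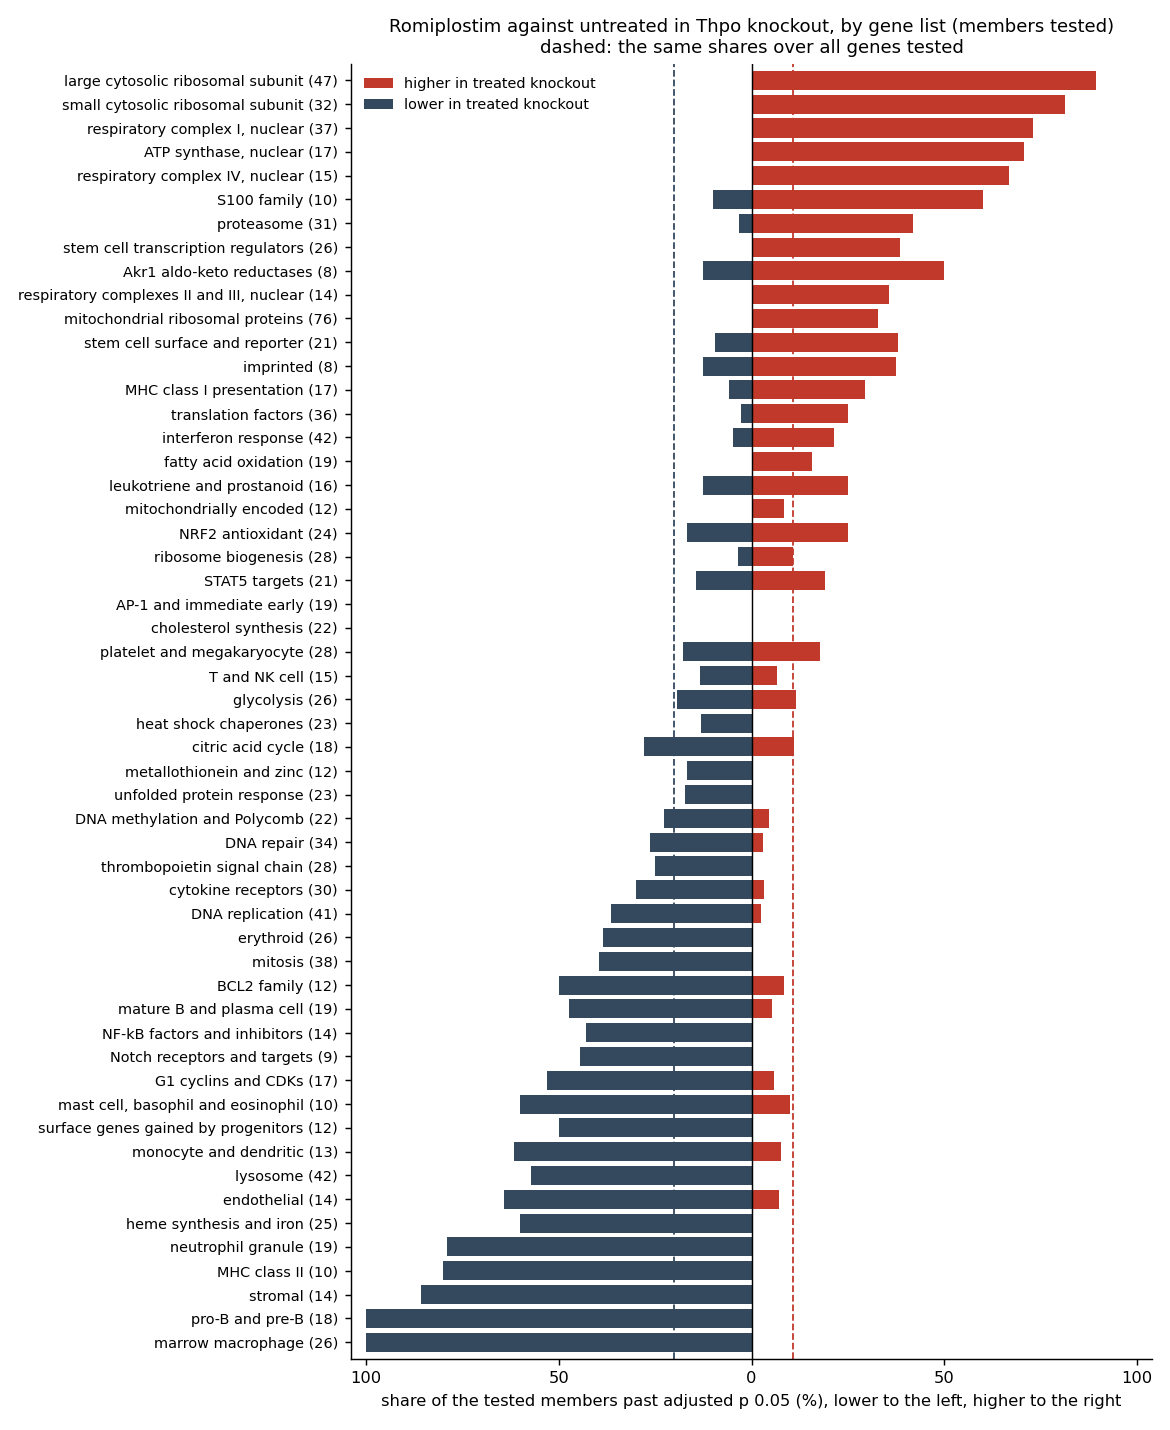
Share of the tested members of each gene list that passed an adjusted p of 0.05 in the knockout, with genes lower in treated cells to the left and genes higher in treated cells to the right. Dashed lines mark the shares over all genes tested, 20.1% lower and 10.8% higher. Ribosomal and respiratory lists lie at the top, and macrophage and pro-B lists at the bottom.

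Feedback inhibitors of the thrombopoietin signal rose. Socs2 (chromosome 10, 95385362 to 95417180, mm10), a suppressor of cytokine signalling, had 86.5, 220 and 133 FPKM in treated and 8.29, 13.1 and 12.4 FPKM in untreated knockout libraries. Every treated value lay above every untreated one, and the log2 fold change was 3.51 ± 0.31 (SE, 3 libraries against 3; adjusted p = 2.9e-05). Cish (chromosome 9, 107296026 to 107302784), which blocks STAT5 docking at the receptor, had 14.4, 33.4 and 13.7 FPKM in treated and 3.23, 3.86 and 4.24 FPKM in untreated knockout libraries. The groups did not overlap (log2 fold change 2.06 ± 0.32, adjusted p = 0.00090). These were the 2 of 7 tested SOCS genes that passed, and the median over the 7 was 0.47, against -0.11 over all genes tested.

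The same genes behaved differently in wild type. Socs2 had 195, 245 and 244 FPKM in treated and 106, 60.2 and 72.5 FPKM in untreated wild-type libraries, so its rise was smaller there (log2 fold change 1.54, interaction 1.97, adjusted p = 0.013). With replicate number as a block over all 12 libraries, the rise there had an adjusted p of 0.054. Cish had 25.4, 36.1 and 36.4 FPKM in treated and 39.9, 58.3 and 28.9 FPKM in untreated wild-type libraries. These overlapped, and the interaction of Cish was 2.39 (adjusted p = 0.0070, and 0.070 with Y-linked RNA as a covariate).

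Cytokine-activated STAT5 dimers bind the palindrome TTCNNNGAA, so the start regions of leading genes were searched for it on both strands (RefSeq, GRCm38.p6, 250 bases before to 50 after the start). Of 21 genes looked up, 16 were in the table; Socs2, Id1, Podxl, Cox4i2 and Ccn3 were not. Across all 32851 windows of this length, 8.30% held at least 1 match and 0.457% held at least 2. Cish held 2, printed here 5′ to 3′ with the matches in capitals (chr9:107296654-107296683, plus strand). Serpina3g (chr12:104236087-104236146, plus strand) and Akr1c19 (chr13:4233680-4233739, plus strand) each held 1 before the RefSeq start. The Cish and Akr1c19 stretches lie inside the GENCODE gene intervals given in this text, which start further upstream.
Cish: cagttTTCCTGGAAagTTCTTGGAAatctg
Serpina3g: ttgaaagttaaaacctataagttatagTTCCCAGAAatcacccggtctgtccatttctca
Akr1c19: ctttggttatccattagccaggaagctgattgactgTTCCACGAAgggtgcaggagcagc

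A match is a string of letters and not a measured binding site. In all, 6 of the 16 genes held TTCNNNGAA, the others being Il4, Ifitm3 and Bst2. No match stood in the windows of Akr1c12, Akr1c13, Stxbp6, Apoa1, Ifitm1, Ifitm2, Procr, Lhcgr, S100a4 and S100a5. Serpina3g (chromosome 12, 104236245 to 104241939), a serine protease inhibitor of activated blood cells, had 902, 2146 and 1369 FPKM in treated and 212, 256 and 261 FPKM in untreated knockout libraries. The lowest treated value was above the highest untreated one (log2 fold change 2.51 ± 0.25, adjusted p = 6.3e-05). Its reads may be shared with other Serpina3 genes, since these are near-identical copies.

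Among 21 tested genes listed as STAT5 targets, 4 rose and 3 fell, with a median of -0.33. The falls numbered 7 without treated replicate 2 and 1 without untreated replicate 1 or 3. Besides Cish and Socs2, the D cyclin Ccnd2 rose by 0.68 ± 0.16, while the D cyclin Ccnd3 fell by 1.29 ± 0.26 (adjusted p with Y-linked RNA as a covariate 0.20 and 0.11). Id1, an inhibitor of helix-loop-helix transcription factors, also rose, with 14.5, 26.3 and 19.6 FPKM in treated and 2.94, 4.16 and 6.50 FPKM in untreated knockout libraries (1.95 ± 0.27, adjusted p = 0.00048). Its relative Id3 went the other way, with 2.55, 19.9 and 7.63 FPKM in treated and 57, 166 and 142 FPKM in untreated knockout libraries (-3.69 ± 0.55, adjusted p = 0.00071). Neither Id1 nor Id3 overlapped between the groups.

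Of the 28 tested genes of the thrombopoietin signal chain itself, 7 fell, a share of the list that lies near the background of 20.1%, and the median was -0.22. Without treated replicate 1 or 3 it was 3 falls, and without untreated replicate 3 it was 4. With Y-linked RNA as a covariate 1 gene fell. Lyn, a SRC-family kinase, had 23.2, 34.8 and 32.5 FPKM in treated and 59, 62.1 and 76.2 FPKM in untreated knockout libraries. Its groups did not overlap, and it fell by 1.11 ± 0.21.

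In the BCL2 family, which sets the threshold for mitochondrial apoptosis, 6 of 12 tested members fell and 1 rose, and 6 others in the list did not pass the filter. Those that fell were of both kinds: the survival factor Bcl2 fell by 0.69 ± 0.19 and the killer Bcl2l11 (BIM) by 0.85 ± 0.12. Bbc3 (PUMA), a killer induced by p53, rose by 0.88 ± 0.26. With Y-linked RNA as a covariate Bcl2 and Bbc3 did not pass (adjusted p = 0.20 and 0.44), whereas Bcl2l11 did (0.036). Without untreated replicate 1, 3 members fell. Bbc3 also did not pass without treated replicate 2 and untreated replicate 3 (adjusted p = 0.092).

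**Figure D2:**
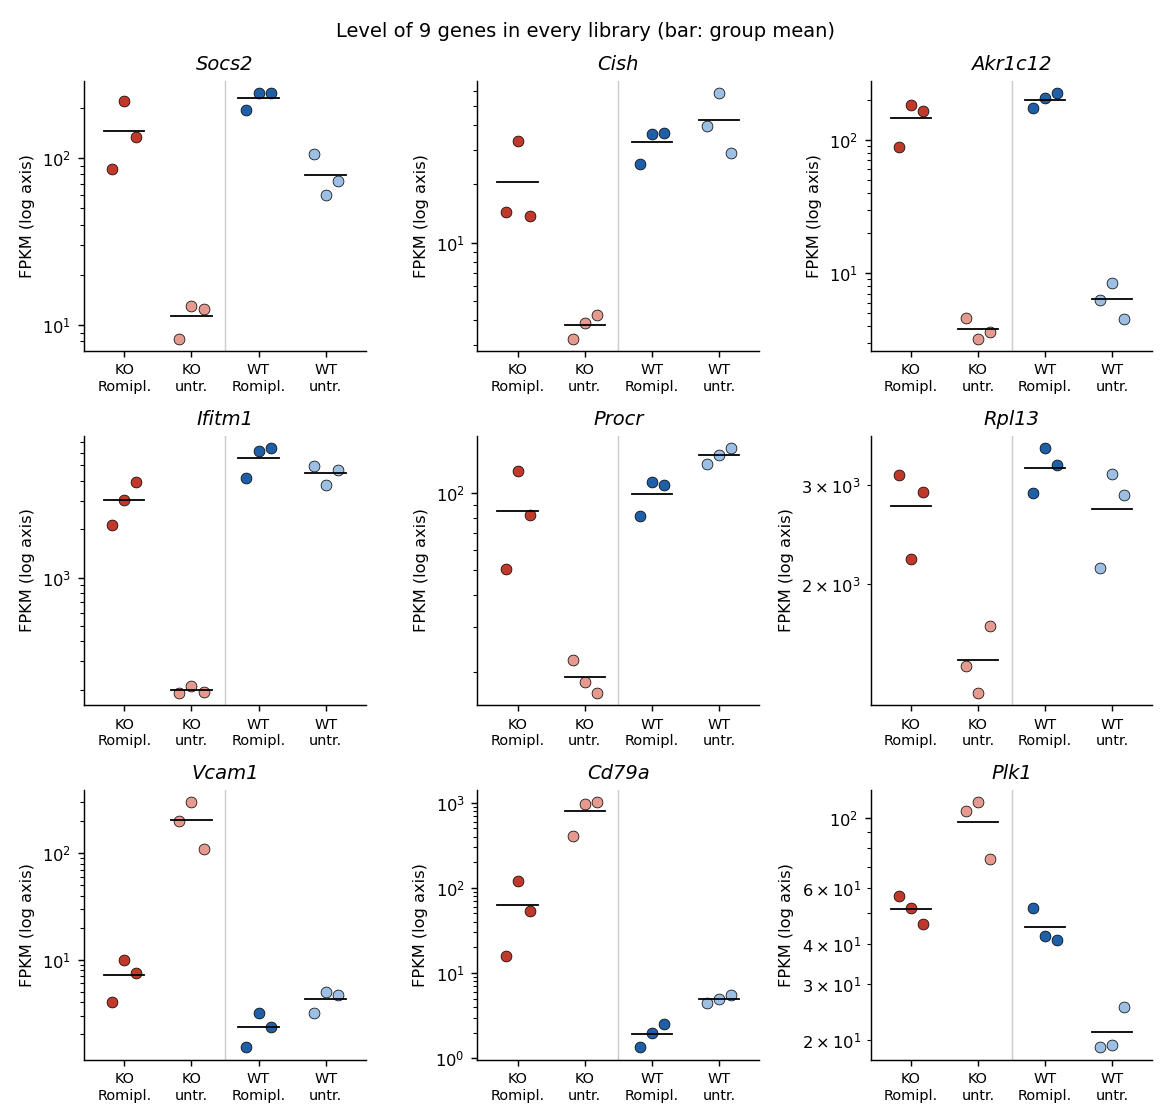
FPKM of 9 genes in every library on log axes, with KO Romiplostim, KO untreated, WT Romiplostim and WT untreated from left to right; each point is 1 library and each bar a group mean. The treated and untreated knockout libraries do not overlap for any of the 9 genes.

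The largest rise belonged to Akr1c12 (chromosome 13, 4268176 to 4279433), an aldo-keto reductase, a family of enzymes that reduce steroids and reactive carbonyls. It had 88.0, 181 and 164 FPKM in treated and 4.62, 3.25 and 3.64 FPKM in untreated knockout libraries (4.85 ± 0.26, adjusted p = 4.3e-06). The treated values were all far above the untreated ones. Akr1c13 on the same chromosome (4191150 to 4205596) had 344, 715 and 593 FPKM in treated and 70.1, 59.2 and 54.7 FPKM in untreated libraries (3.09 ± 0.23). Akr1c19 (4228700 to 4252843) had 11, 16 and 14.6 FPKM in treated and 0.119, 0.0559 and 1.16 FPKM in untreated libraries (3.43 ± 0.24). Neither of these overlapped between the groups, and all 3 passed with Y-linked RNA as a covariate.

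The last 100 bases before the RefSeq starts of Akr1c12 (chr13:4279400-4279499, minus strand) and Akr1c13 (chr13:4191087-4191186, plus strand) are printed because this pair lies in opposite directions and rose together. The capitals mark the longest run the 2 stretches share, 26 bases. This run lies inside both gene intervals given above, whose GENCODE starts are further upstream. Over the bases before the start, 196 of 247 aligned positions were identical without gaps (79.4%), against 31.3% for Akr1c12 with Akr1c19. An alignment without gaps loses identity at any insertion or deletion, so the lower share does not test how alike the Akr1c19 region is. Neither window held TTCNNNGAA.
Akr1c12: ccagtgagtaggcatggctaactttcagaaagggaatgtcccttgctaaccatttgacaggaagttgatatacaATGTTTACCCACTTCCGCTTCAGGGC
Akr1c13: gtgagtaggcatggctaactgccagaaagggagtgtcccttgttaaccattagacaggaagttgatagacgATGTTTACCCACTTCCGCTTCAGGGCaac

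Genes this alike can share reads, and how the counting split such reads is not stated, so the separate values of the pair are uncertain. In the Akr1 list as a whole 4 of 8 tested genes rose and 1 fell, 7 others did not pass the filter, and the median was 0.45. The rise of Akr1c12 was of the same size in wild type, where it had 172, 205 and 223 FPKM in treated and 6.36, 8.48 and 4.51 FPKM in untreated libraries (log2 fold change 4.78; interaction 0.07, adjusted p = 0.92). Akr1c13 and Akr1c19 rose by 2.03 and 2.04 in wild type, with interactions of 1.06 and 1.39 (adjusted p = 0.048 and 0.021). Neither interaction passed with Y-linked RNA as a covariate (0.16 and 0.082), and that of Akr1c13 did not pass without treated replicate 2 and untreated replicate 3 (0.11) or with the replicate block (0.067).

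Stxbp6, which binds SNARE proteins of vesicle fusion, had 15.5, 32.4 and 25.3 FPKM in treated and 1.16, 0.894 and 1.15 FPKM in untreated knockout libraries (3.56 ± 0.21). Cox4i2, an alternative subunit of respiratory complex IV, had 17.1, 31.5 and 32.8 FPKM in treated and 0.905, 1.19 and 1.96 FPKM in untreated libraries (3.55 ± 0.24). Podxl, a sialomucin of the CD34 family, had 18.5, 14.5 and 32.4 FPKM in treated and 0.808, 1.42 and 0.524 FPKM in untreated libraries (3.52 ± 0.36). None of the 3 overlapped between the knockout groups, and each also rose in wild type, by 3.24, 1.93 and 2.39. Apoa1, the main protein of high-density lipoprotein, rose by 3.45 ± 0.32 in the knockout and by 2.27 in wild type.

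Calcium-binding S100 proteins rose as well, in 6 of 10 tested members against 1 that fell, with a median of 0.76. S100a4, linked to cell motility, had 124, 116 and 234 FPKM in treated and 9.97, 8.90 and 21.1 FPKM in untreated knockout libraries (3.50 ± 0.45). Its groups were far apart. S100a6 rose by 1.75 ± 0.41 and S100a10 by 1.06 ± 0.20, although neither passed with Y-linked RNA as a covariate (adjusted p = 0.098 and 0.058). S100a8, a neutrophil granule protein, had 1252, 884 and 1625 FPKM in treated and 3108, 2000 and 14310 FPKM in untreated libraries and did not pass (-1.88, adjusted p = 0.12).

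Il4, the cytokine interleukin-4, had 20.6, 37.7 and 26.9 FPKM in treated and 2.39, 1.87 and 1.91 FPKM in untreated knockout libraries (3.23 ± 0.25, adjusted p = 1.4e-05). It stands in the list of mast cells, basophils and eosinophils, in which 6 of the other 9 tested members fell. Cpa3, a mast cell protease, fell by 1.90 ± 0.18 and Hdc, the enzyme that makes histamine, fell by 2.54 ± 0.32. Lhcgr, the receptor for luteinizing hormone, had 8.00, 10.8 and 12.4 FPKM in treated and 1.17, 0.963 and 1.05 FPKM in untreated libraries (2.45 ± 0.17). Both Il4 and Lhcgr had high values in untreated wild-type cells already, 21.4 to 39.3 FPKM for Il4 and 18.6 to 24.5 FPKM for Lhcgr. Their interactions were 2.33 and 2.72 (adjusted p = 0.0029 and 0.00025).

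The second-largest rise was that of Ifitm1 (chromosome 7, 140967221 to 140969825), a small membrane protein that blocks virus entry and that interferon can induce. It had 2139, 3054 and 3954 FPKM in treated and 191, 210 and 194 FPKM in untreated knockout libraries (3.89 ± 0.23, adjusted p = 4.3e-06). Ifitm3 had 2701, 3037 and 3708 FPKM in treated and 612, 589 and 983 FPKM in untreated libraries (2.14 ± 0.20). Ifitm2 had 1506, 1475 and 1879 FPKM in treated and 803, 727 and 803 FPKM in untreated libraries (1.05 ± 0.14). The groups of these 3 genes did not overlap, and all 3 passed with Y-linked RNA as a covariate (adjusted p = 0.00024, 0.0036 and 0.012).

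In wild type the same genes were high with and without the agonist. Ifitm1 had 4174, 6133 and 6438 FPKM in treated and 4964, 3797 and 4651 FPKM in untreated wild-type libraries, which overlapped. The interactions were 3.59 for Ifitm1, 2.14 for Ifitm3 and 1.02 for Ifitm2 (adjusted p = 0.00033, 0.0018 and 0.0079). Ifitm genes lie side by side and resemble each other, so reads may be shared between them.

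Interferon acts through elements of the form GAAANNGAAA, which 3.44% of the windows held on either strand. Ifitm3 held 2 just after its start (chr7:141010715-141010744, minus strand) and Ifitm2 held 1 before its start (chr7:140955982-140956041, minus strand), here with the matches in capitals. One match of TTCNNNGAA in the Ifitm3 window overlaps its second element. The window of Ifitm1, the member with the largest rise, held neither motif. That window begins downstream of the gene start given above, so the bases before that start were not searched. Of the 16 genes 4 held GAAANNGAAA, the others being Bst2 and Il4, and for Il4 this was in another start region than its TTCNNNGAA.
Ifitm3: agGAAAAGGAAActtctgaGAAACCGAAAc
Ifitm2: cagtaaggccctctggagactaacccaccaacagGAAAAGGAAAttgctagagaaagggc

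The wider interferon response moved less. Of 42 tested genes 9 rose and 2 fell, with a median of 0.27, and under quantile normalization the count was 16 and 1. The falls numbered 7 without treated replicate 2. Bst2, which tethers budding virus, had 243, 201 and 206 FPKM in treated and 117, 131 and 147 FPKM in untreated knockout libraries (0.72 ± 0.13). Its groups did not overlap, and the interaction was 1.02 (adjusted p = 0.0065, and 0.053 with Y-linked RNA as a covariate). Xaf1 and Rtp4 rose by 0.85 ± 0.16 and 0.88 ± 0.17, and Ifi204, a DNA sensor of the myeloid lineage, fell by 1.79 ± 0.21. In the covariate fit 1 gene rose and 1 fell in this list, and Xaf1 and Rtp4 did not pass (adjusted p = 0.11 and 0.16).

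Peptide presentation on MHC class I rose in 5 of 17 tested genes and fell in 1. Leaving out 1 library gave 1 to 6 rises, with 1 to 3 when the library was a treated one of either genotype, untreated knockout replicate 1 or 2, or untreated wild-type replicate 3. The immunoproteasome subunit Psmb9 had 340, 289 and 294 FPKM in treated and 200, 220 and 220 FPKM in untreated knockout libraries (0.53 ± 0.12). These did not overlap, while the loading factor Tapbp fell by 0.55 ± 0.13. With Y-linked RNA as a covariate limma called 0 of the 17, of which 2 rose and 1 fell at an unadjusted p under 0.05.

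Some genes that mark stem cells rose. Of 21 tested surface and reporter genes 8 rose and 2 fell, and of 26 tested stem cell transcription regulators 10 rose, with medians of 0.43 and 0.49. Procr (chromosome 2, 155751117 to 155755471), the endothelial protein C receptor that marks stem cells, had 50.5, 122 and 82.2 FPKM in treated and 22.2, 18.2 and 16.5 FPKM in untreated knockout libraries (2.03 ± 0.26, adjusted p = 0.00027). Its lowest treated value was well above the highest untreated one.

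Slamf1 (CD150) had 16.9, 36.6 and 28.8 FPKM in treated and 8.79, 5.51 and 12 FPKM in untreated knockout libraries (1.53 ± 0.27). Ly6a, which encodes Sca-1, had 537, 824 and 796 FPKM in treated and 181, 251 and 427 FPKM in untreated libraries (1.39 ± 0.29). Both were separated between the groups, as were Jam3 (1.65 ± 0.31) and Fgd5 (1.40 ± 0.27), an exchange factor used to report stem cells. Vldlr, a lipoprotein receptor that also marks stem cells, fell by 1.90 ± 0.46.

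Mllt3, a reader of acetylated and crotonylated histones that maintains stem cells, had 48.3, 71.3 and 57 FPKM in treated and 25.6, 23 and 24.1 FPKM in untreated knockout libraries (1.23 ± 0.18, adjusted p = 0.00073). Mecom, which encodes EVI1, had 13.3, 31.1 and 24.8 FPKM in treated and 11.1, 4.97 and 7.03 FPKM in untreated libraries (1.45 ± 0.29). Hlf had 26.1, 52.4 and 57.3 FPKM in treated and 25.1, 19.8 and 17.0 FPKM in untreated libraries (1.04 ± 0.28). Treated replicate 1 was the lowest treated library for each of these 3 genes, and for Mecom and Hlf it stood just above untreated replicate 1. Tcf15, a marker of quiescent stem cells, rose by 1.72 ± 0.30.

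The levels of both lists as a whole did overlap. For the transcription regulators the mean log2(FPKM + 1) was 4.03, 4.84 and 4.59 in treated and 4.13, 3.80 and 3.80 in untreated knockout libraries. Treated replicate 1 thus lay below untreated replicate 1. For the surface and reporter genes it was 4.44, 5.25 and 5.04 in treated and 4.55, 4.20 and 4.49 in untreated knockout libraries. There treated replicate 1 lay below untreated replicates 1 and 3. The fit with the Y-linked covariate had 2 of the 26 regulators and 1 of the 21 surface genes higher. Procr and Mllt3 passed there (adjusted p = 0.010 and 0.026), and Slamf1, Ly6a, Hlf, Mecom, Fgd5, Jam3 and Vldlr did not (0.065, 0.059, 0.20, 0.096, 0.051, 0.063 and 0.28). Without treated replicate 2 and untreated replicate 3, 6 of the regulators rose and 1 fell, 7 of the surface genes rose and 2 fell, and Hlf did not pass (adjusted p = 0.11). Without treated replicate 1 alone, 16 regulators and 13 surface genes rose, and without treated replicate 3 or untreated replicate 3, 6 regulators did.

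Some of these stem cell genes differed by genotype in their response. The interaction passed for 8 of the 26 regulators and 6 of the 21 surface genes, each of them positive, against a background of 5.18% positive and 10.5% negative interactions over all genes. It was 2.53 for Procr (adjusted p = 0.0025), 2.47 for Jam3, 1.65 for Mllt3 and 1.83 for Hlf. In the covariate fit 1 regulator and 1 surface gene passed, Mllt3 and Procr (adjusted p = 0.037 and 0.025), and Jam3 and Hlf had 0.053 and 0.094. Procr had 81.1, 110 and 108 FPKM in treated and 130, 141 and 151 FPKM in untreated wild-type libraries. The treated wild-type libraries were the lower ones, without passing the test (-0.50, adjusted p = 0.46).

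Among 12 surface genes that progenitors gain on leaving the stem cell state, 6 fell and the median was -1.01. Cd48, which is low on stem cells, had 94.5, 119 and 195 FPKM in treated and 113, 214 and 144 FPKM in untreated knockout libraries, which overlapped (-0.22, adjusted p = 0.58). In wild type it rose, with 80.2, 78.8 and 96.7 FPKM in treated and 17.6, 12.6 and 20.8 FPKM in untreated libraries (2.28, adjusted p = 0.0025; interaction -2.5, adjusted p = 0.0039, and 0.053 with Y-linked RNA as a covariate).

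**Figure D3:**
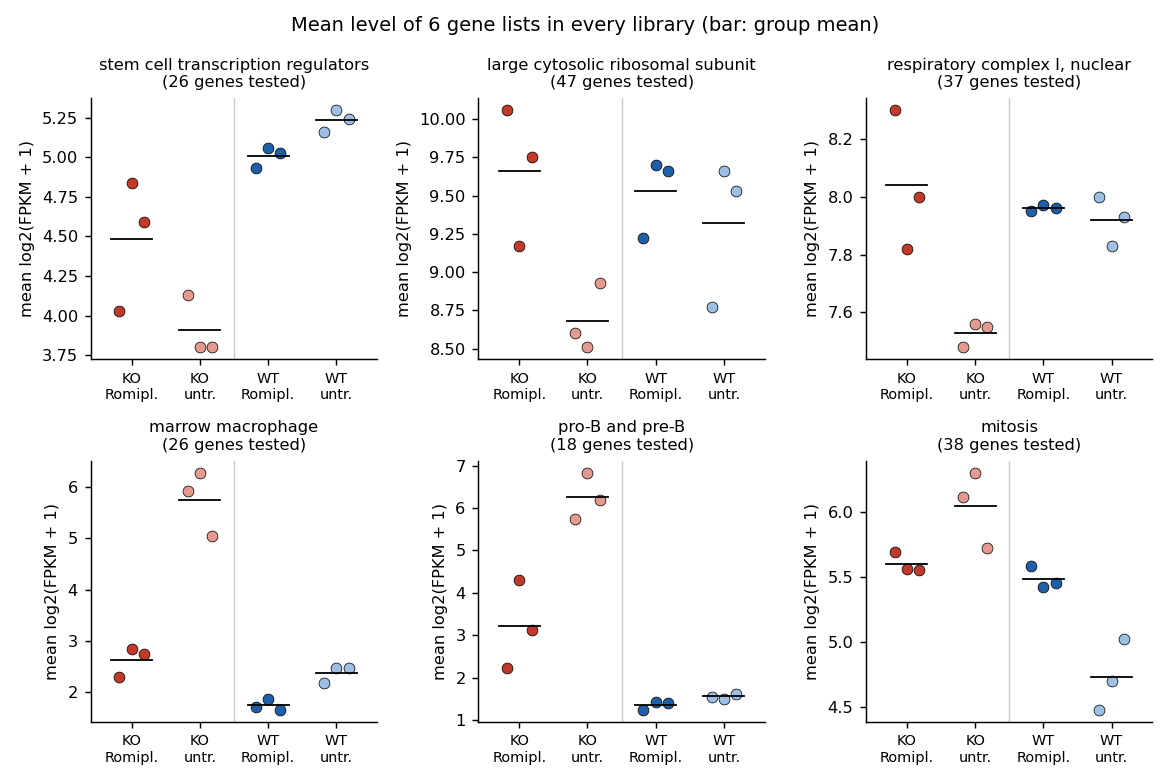
Mean log2(FPKM + 1) of the tested members of 6 gene lists in every library, with KO Romiplostim, KO untreated, WT Romiplostim and WT untreated from left to right; each point is 1 library and each bar a group mean. Ribosomal and complex I genes separate the treated from the untreated knockout libraries upward, macrophage and pro-B genes downward, and the stem cell regulators overlap at treated replicate 1.

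Ribosomal protein genes rose as a block. In the large subunit 42 of 47 tested genes rose, the median log2 fold change being 1.05, and in the small subunit 26 of 32, with a median of 1.04, against 10.8% and -0.11 over all genes. The mean level of the large subunit genes was 10.06, 9.17 and 9.75 in treated and 8.6, 8.51 and 8.93 in untreated knockout libraries on the log2(FPKM + 1) scale, without overlap. In wild type it was 9.22, 9.70 and 9.66 in treated and 8.77, 9.66 and 9.53 in untreated libraries, which overlapped. The interaction passed for 1 of the 47 large-subunit and 0 of the 32 small-subunit genes. Without treated knockout replicate 2 and untreated knockout replicate 3 it passed for 20 and 8, each positive. Rpl13 had 3133, 2220 and 2922 FPKM in treated and 1432, 1281 and 1684 FPKM in untreated libraries (0.91 ± 0.19, adjusted p = 0.0050). Rps6, the ribosomal target of S6 kinase, had 2490, 1731 and 2306 FPKM in treated and 1127, 1036 and 1245 FPKM in untreated libraries (0.92 ± 0.22). In both genes every treated library was above every untreated one, and treated replicate 2 was the lowest treated library.

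With Y-linked RNA as a covariate limma called 0 of the 47 large-subunit genes, of which 25 rose at an unadjusted p under 0.05, and the median was 1.0. For the small subunit it called 0 of 32, with 12 rising at an unadjusted p under 0.05 and a median of 1.05. Without treated replicate 2 and untreated replicate 3, 45 and 32 rose. The counts were 20 and 10 without treated replicate 1, 15 and 8 without treated replicate 3, 16 and 9 without untreated replicate 1, and 14 and 8 without untreated replicate 2. Quantile normalization left 27 and 17 rises, with medians of 0.76 and 0.69. Other parts of the translation machinery moved less: 9 of 36 translation factors and 3 of 28 ribosome biogenesis factors rose (6 without treated replicate 2). The latter share is near the 10.8% of all genes. With Y-linked RNA as a covariate limma called 0 genes of both lists. At an unadjusted p under 0.05, 8 translation factors and 4 biogenesis factors then rose and 2 translation factors fell. Npm1, a nucleolar chaperone of ribosome assembly, rose by 0.81 ± 0.17, and its adjusted p was 0.13 with Y-linked RNA as a covariate.

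Nuclear genes of oxidative phosphorylation, the process by which mitochondria make ATP, rose with the ribosomal genes. Rises numbered 27 of 37 tested genes in complex I, 5 of 14 in complexes II and III, 10 of 15 in complex IV and 12 of 17 in ATP synthase, with medians of 0.63, 0.23, 0.70 and 0.71. Ndufa13 of complex I had 217, 175 and 205 FPKM in treated and 116, 114 and 136 FPKM in untreated knockout libraries (0.70 ± 0.12, adjusted p = 0.0013). Uqcrb of complex III had 1046, 668 and 982 FPKM in treated and 384, 442 and 460 FPKM in untreated libraries (1.04 ± 0.19). Both were separated between the groups and passed with Y-linked RNA as a covariate (adjusted p = 0.035 and 0.042), as did 3 of the 37 complex I genes in all. In that fit 1 of the 14 genes of complexes II and III and 1 of the 15 of complex IV rose, and limma called 0 of 17 in ATP synthase, of which 12 rose at an unadjusted p under 0.05. Complex I had 14 rises and ATP synthase 4 without untreated replicate 1, and ATP synthase had 6 without treated replicate 3. Complex IV had 5 without treated replicate 3 or untreated replicate 1 and 6 without untreated replicate 2, and complexes II and III had 3 without treated replicate 1 or 3 or untreated replicate 1 or 2.

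Of the 76 tested proteins of the mitochondrial ribosome 25 rose, with a median of 0.27, and 15 or 16 did without treated replicate 1, untreated replicate 1 or untreated replicate 2. With Y-linked RNA as a covariate 6 rose. Mrpl13 had 136, 110 and 123 FPKM in treated and 69.1, 76.9 and 69.0 FPKM in untreated knockout libraries (0.77 ± 0.11), with no overlap. The genes that mitochondrial DNA itself encodes passed in 1 of 12 cases, although their median was 0.83, and in 7 cases without treated replicate 2. Their mean level was 8.10, 7.13 and 8.56 in treated and 6.66, 6.68 and 7.18 in untreated libraries, so treated replicate 2 lay below untreated replicate 3.

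Not all energy metabolism moved with them. In the citric acid cycle 2 of 18 tested genes rose and 5 fell, in glycolysis 3 of 26 rose and 5 fell, and in fatty acid oxidation 3 of 19 rose. The glycolysis shares are near those of all genes, 10.8% and 20.1%. With Y-linked RNA as a covariate limma called 0 genes in the citric acid cycle and in glycolysis. At an unadjusted p under 0.05, 1 rose and 2 fell in the former and 3 rose and 2 fell in the latter. Without 1 library the falls in the citric acid cycle ranged from 0, without untreated replicate 1, to 6, and the rises in glycolysis from 0, without treated replicate 3, to 6, without treated replicate 1. Limma called 0 of 22 genes of cholesterol synthesis, of which 2 rose at an unadjusted p under 0.05. In the proteasome 13 of 31 genes rose and 1 fell, but the median was 0.08 and turned to -0.02 under quantile normalization, with 5 rises and 4 falls. It had 7 rises without untreated replicate 1 and 8 without treated replicate 3 or untreated replicate 3. With Y-linked RNA as a covariate limma called 0 of the 31, of which 10 rose at an unadjusted p under 0.05. Psma4, a core subunit, had 638, 603 and 665 FPKM in treated and 405, 433 and 405 FPKM in untreated libraries (0.62 ± 0.10), and these did not overlap. Its adjusted p with Y-linked RNA as a covariate was 0.056.

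Antioxidant genes were mixed, with 6 of 24 NRF2 targets higher and 4 lower. Over all genes 10.8% rose and 20.1% fell, so the falls are near that share. With Y-linked RNA as a covariate 1 NRF2 target was higher and 2 were lower. Without treated replicate 1, 3 were higher and 7 lower, and 3 were higher without treated replicate 3 or untreated replicate 1. Txn1, thioredoxin, rose by 0.98 ± 0.19 (adjusted p with Y-linked RNA as a covariate 0.067) and Gsr, glutathione reductase, fell by 1.09 ± 0.17. Gsta4, a glutathione transferase for lipid aldehydes, had 17.1, 25.7 and 19.9 FPKM in treated and 10.7, 10.4 and 9.77 FPKM in untreated knockout libraries (0.93 ± 0.14). In wild type it fell by 0.78, and the interaction was 1.71 (adjusted p = 0.0010).

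Macrophage genes were among the steepest falls, and all 26 tested members of that list fell, with a median log2 fold change of -3.41. Vcam1 (chromosome 3, 116109949 to 116129688), an adhesion molecule of marrow macrophages and stromal cells, had 4.04, 9.98 and 7.59 FPKM in treated and 200, 302 and 110 FPKM in untreated knockout libraries (-4.60 ± 0.36, adjusted p = 1.7e-05). C1qa, a complement component made by macrophages, had 8.53, 14.3 and 15.1 FPKM in treated and 220, 337 and 117 FPKM in untreated libraries (-3.96 ± 0.36). Slc40a1, the iron exporter ferroportin, had 40.0, 22.9 and 16 FPKM in treated and 465, 469 and 197 FPKM in untreated libraries (-3.78 ± 0.34). In each case the untreated values were several times the treated ones, and untreated replicate 3 was the lowest of its group.

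In wild type these genes were low throughout: C1qa had 2.06, 3.18 and 1.48 FPKM in treated and 5.0, 8.90 and 8.72 FPKM in untreated libraries. The interaction passed for 24 of the 26 macrophage genes, all with the fall deeper in the knockout, and was -3.93 for Vcam1. It passed for 13 of them with Y-linked RNA as a covariate, Vcam1 included (adjusted p = 0.026). Hmox1, which degrades heme, was an exception: it had 20.7, 34.9 and 27.0 FPKM in treated and 382, 466 and 241 FPKM in untreated knockout libraries (-3.65 ± 0.27). It also fell in wild type, by 2.88 (adjusted p = 0.00036). In the fit with the Y-linked covariate 25 of the 26 macrophage genes fell, and all 26 did without treated replicate 2 and untreated replicate 3.

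Genes of B cell precursors fell together with them, 18 of 18 tested, with a median of -3.19. Cd79a, which passes on the B cell receptor signal, had 15.9, 122 and 52.9 FPKM in treated and 406, 960 and 1011 FPKM in untreated knockout libraries (-3.93 ± 0.56). Ebf1, which starts the B cell program, had 1.22, 7.72 and 1.62 FPKM in treated and 30.5, 72.8 and 42.0 FPKM in untreated libraries (-3.65 ± 0.44). Pax5, which locks in that program, was listed at 0 in treated replicate 1 and had 0.947 and 0.195 FPKM in replicates 2 and 3, against 4.18, 8.67 and 9.72 FPKM in untreated libraries. Treated replicate 2 was the highest treated library for all 3 genes and stayed below every untreated one. Of the 18, 9 fell with Y-linked RNA as a covariate.

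Genes of mature B and plasma cells fell in 9 of 19 tested cases and rose in 1, but immunoglobulin did not follow. Igkc, the kappa light chain constant region, had 1223, 1953 and 24770 FPKM in treated and 4556, 7737 and 5823 FPKM in untreated knockout libraries. Treated replicate 3 held far more than any other library, the groups overlapped, and the gene did not pass (-0.60, adjusted p = 0.74). Of 15 tested T and NK cell genes 2 fell and 1 rose, shares near those of all genes, 20.1% and 10.8%.

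Neutrophil granule genes fell in 15 of 19 tested cases, with a median of -2.27. Mpo, the granule peroxidase, had 68.5, 197 and 148 FPKM in treated and 969, 849 and 703 FPKM in untreated knockout libraries (-2.72 ± 0.50). Ltf, lactoferrin, had 22.1, 59 and 28.9 FPKM in treated and 307, 119 and 1052 FPKM in untreated libraries (-3.29 ± 0.78), with the top value in untreated replicate 3. Neither overlapped between the groups. With Y-linked RNA as a covariate limma called 0 of the 19, of which 6 fell at an unadjusted p under 0.05.

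Stromal genes fell in 12 of 14 tested cases and endothelial genes in 9 of 14, with 1 endothelial gene higher. In the covariate fit 7 and 2 fell, and the endothelial rise did not pass. Their summed levels were 19.4 to 46.9 FPKM in treated against 228 to 916 FPKM in untreated knockout libraries for the stromal list, and 133 to 276 against 228 to 613 FPKM for the endothelial list. Cxcl12, the chemokine that holds stem cells in the marrow, had 2.76, 10.4 and 4.37 FPKM in treated and 62.0, 111 and 378 FPKM in untreated libraries (-4.50 ± 0.78). Lepr, the leptin receptor of marrow stroma, fell by 2.97 ± 0.48. Untreated replicate 3 was the highest library for Cxcl12 and Lepr. How far RNA from other cells enters the remaining comparisons was not tested.

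Functions shared with such cells moved the same way. MHC class II genes, which present peptides to helper T cells, fell in 8 of 10 tested cases, with a median of -2.61. H2-Ab1 had 150, 158 and 157 FPKM in treated and 613, 666 and 2101 FPKM in untreated knockout libraries (-2.61 ± 0.35), and its treated values were almost equal. Lysosomal genes fell in 24 of 42 cases, with a median of -0.60. Lgmn, an asparagine-specific protease, had 3.77, 11.8 and 6.97 FPKM in treated and 85.5, 124 and 74.9 FPKM in untreated libraries (-3.57 ± 0.32). The aspartic protease Ctsd fell by 1.84 ± 0.24 and the sialidase Neu1 by 1.16 ± 0.15. Both lists fell beside the macrophage markers, whose summed level is given above, and with Y-linked RNA as a covariate 5 of the 10 and 10 of the 42 fell.

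**Figure D4:**
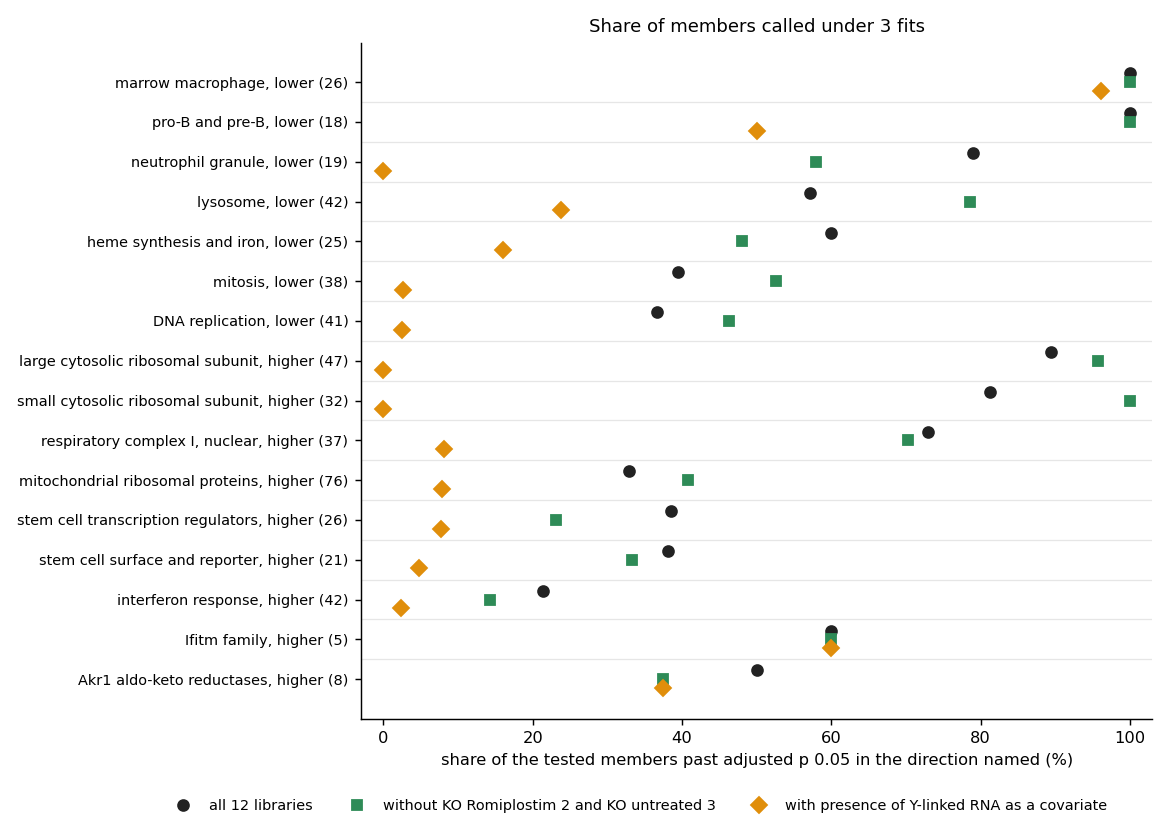
Share of the tested members of 16 list and direction pairs past an adjusted p of 0.05 in 3 fits of the knockout effect: all 12 libraries, without treated replicate 2 and untreated replicate 3, and with presence of Y-linked RNA as a covariate. Macrophage genes stay at or near the top in all 3 fits and Ifitm genes hold one share, whereas ribosomal genes are at 0 with the covariate.

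Red cell genes fell in 10 of 26 tested cases, with a median of -1.17, and in 2 with Y-linked RNA as a covariate. The count turned on single libraries: it was 20 without treated replicate 1, 5 without treated replicate 2 or untreated replicate 1, and 4 without treated replicate 3. Klf1, a master regulator of red cells, had 252, 58.0 and 48.2 FPKM in treated and 242, 203 and 216 FPKM in untreated knockout libraries, and treated replicate 1 lay among the untreated ones (-1.29, adjusted p = 0.057). Car1, carbonic anhydrase of red cell precursors, had 5804, 600 and 797 FPKM in treated and 2309, 1994 and 2023 FPKM in untreated knockout libraries, which overlapped through the same library. In wild type Car1 had 2.45, 0.346 and 5.0 FPKM in treated and 110, 160 and 156 FPKM in untreated libraries (-5.54, adjusted p = 0.0034; interaction 4.96, adjusted p = 0.0099, and 0.083 with Y-linked RNA as a covariate).

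Heme synthesis and iron handling fell more evenly, in 15 of 25 tested genes, with a median of -0.82. Alas1, the housekeeping first enzyme of heme synthesis, had 21.6, 42.7 and 27.4 FPKM in treated and 73.4, 62.7 and 74.7 FPKM in untreated knockout libraries (-1.23 ± 0.20). Uros, a later enzyme of the pathway, had 36.9, 30.3 and 21.8 FPKM in treated and 54.7, 56.5 and 62.1 FPKM in untreated libraries (-0.97 ± 0.16). Neither overlapped between the groups, and with Y-linked RNA as a covariate 4 of the 25 fell, Alas1 not among them (adjusted p = 0.053). Summed red cell markers were 3610 to 12500 FPKM in treated and 6870 to 23700 FPKM in untreated knockout libraries.

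Of 28 tested platelet and megakaryocyte genes 5 were higher and 5 lower, with a median of 0.27. Over all genes 10.8% rose and 20.1% fell, so the falls are near that share. With Y-linked RNA as a covariate 1 gene was higher and 2 were lower. Rises numbered 9 without treated replicate 1, 3 without treated replicate 2, untreated replicate 1 or untreated replicate 2, and 2 without treated replicate 3; falls numbered 3 without untreated replicate 1. Vwf, von Willebrand factor, which also marks platelet-biased stem cells, had 13.8, 16.9 and 27.6 FPKM in treated and 6.05, 3.41 and 3.76 FPKM in untreated knockout libraries (1.89 ± 0.28, adjusted p = 0.00064). The groups did not overlap, and the gene passed with Y-linked RNA as a covariate (adjusted p = 0.042). Tmem40, a platelet transcript, rose by 1.16 ± 0.21, while Itga2b (CD41) fell by 0.90 ± 0.29 and Serpine2, a protease inhibitor, fell by 3.47 ± 0.39. Tmem40 and Itga2b did not pass with Y-linked RNA as a covariate (adjusted p = 0.10 and 0.24). Pf4, the platelet chemokine that marks megakaryocytes, had 203, 262 and 506 FPKM in treated and 311, 166 and 313 FPKM in untreated libraries, with overlap (0.25, adjusted p = 0.77).

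Some genes of cell division fell in treated knockout cells. Of 38 tested mitosis genes 15 fell, with a median of -0.50, of 41 DNA replication genes 15 fell and 1 rose, and of 17 G1 cyclins, kinases and E2F factors 9 fell and 1 rose. Without treated replicate 3, untreated replicate 1 or untreated replicate 2, the mitosis falls numbered 9, 7 and 6 and the replication falls 8, 7 and 9. Plk1, a mitotic kinase, had 56.6, 52.1 and 46.4 FPKM in treated and 105, 112 and 74.0 FPKM in untreated knockout libraries (-0.88 ± 0.17, adjusted p = 0.0036). Rrm2, a subunit of the enzyme that makes DNA building blocks, had 189, 207 and 134 FPKM in treated and 535, 713 and 429 FPKM in untreated libraries (-1.65 ± 0.23). The groups were apart for both genes.

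E2f2, an activator of S phase genes, had 1.73, 2.98 and 2.38 FPKM in treated and 10.2, 17.6 and 12.8 FPKM in untreated knockout libraries (-2.10 ± 0.20). Ccne1 (cyclin E1) fell by 1.54 ± 0.28, and so did the CDK inhibitor Cdkn2c, by 1.5 ± 0.25. In the covariate fit 1 mitosis gene, 1 replication gene and 1 G1 gene fell, among them E2f2 (adjusted p = 0.0070). Plk1, Kif2c and Ccne1 then had an adjusted p of 0.063, 0.061 and 0.070.

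The response of mitosis genes differed between the genotypes by the interaction test, which was negative for 26 of the 38, against 10.5% of all genes, and for 8 with Y-linked RNA as a covariate. In wild type 10 of the 38 rose, with a median of 0.72. With the covariate 6 did, and with replicate number as a block over all 12 libraries also 6. Plk1 had 51.9, 42.5 and 41.1 FPKM in treated and 18.9, 19.3 and 25.4 FPKM in untreated wild-type libraries (1.06, adjusted p = 0.015; interaction -1.94, adjusted p = 0.0014). Kif2c, a microtubule motor of the centromere, fell by 0.67 ± 0.16 in the knockout and rose by 1.44 in wild type (interaction -2.11, adjusted p = 0.00089). The mean level of the list was 5.69, 5.56 and 5.55 in treated knockout libraries and 5.42 to 5.58 in treated wild-type libraries, next to 6.11, 6.30 and 5.72 in untreated knockout and 4.48 to 5.02 in untreated wild-type libraries.

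Other signalling lists held genes that fell. Hes1, a repressor that Notch induces, had 3.13, 7.63 and 3.52 FPKM in treated and 18.5, 40.5 and 25.6 FPKM in untreated knockout libraries (-2.35 ± 0.30), without overlap. In wild type it had 21.2, 20.5 and 19.8 FPKM in treated and 9.97, 6.31 and 7.06 FPKM in untreated libraries, and the interaction was -3.67 (adjusted p = 0.0011). Of 9 tested Notch receptors and targets 4 fell, and 8 others in the list did not pass the filter. Among NF-kB factors and inhibitors 6 of 14 fell, including the inhibitor Tnfaip3 (A20), by 1.28 ± 0.19, and 10 fell without treated replicate 2. With Y-linked RNA as a covariate 2 of the Notch genes and 1 of the NF-kB genes fell.

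Cytokine receptors fell in 9 of 30 tested cases and rose in 1, with a median of -0.42, and 5 fell with Y-linked RNA as a covariate. The TGF-beta family receptors Acvrl1 and Tgfbr2 fell by 2.60 ± 0.19 and 1.32 ± 0.21. Acvrl1 had 0.405, 0.966 and 0.715 FPKM in treated and 7.88, 8.63 and 11.3 FPKM in untreated knockout libraries, far apart. In the unfolded protein response 4 of 23 genes fell, near the background share of 20.1%, among them the sensor kinase Eif2ak3 (PERK), by 1.24 ± 0.15. Limma called 0 of 19 immediate early genes, of which 4 fell and 1 rose at an unadjusted p under 0.05.

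Of the imprinted genes, expressed from 1 parental copy, 3 of 8 tested rose and 1 fell, and 13 others did not pass the filter. Grb10, an adaptor that restrains insulin signalling, had 18.3, 21.3 and 21.9 FPKM in treated and 11.2, 8.19 and 8.14 FPKM in untreated knockout libraries (1.09 ± 0.15), without overlap. Dnmt3b, a DNA methyltransferase, rose by 1.26 ± 0.26, with an adjusted p of 0.078 under the Y-linked covariate. Of 6 tested Hox genes 3 rose, and 22 others in the list did not pass the filter. The covariate fit left limma calling 0 of the 6, of which 1 rose at an unadjusted p under 0.05, and 1 rose without treated replicate 2 and untreated replicate 3. The count was 5 without treated replicate 1 and 1 without untreated replicate 2.

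Set beside wild type, the knockout response was the wider one at this threshold. In wild type 80 of the same genes rose (0.659%) and 62 fell (0.511%), counts that ranged in total from 39 to 326 when 1 library was left out. The 2 contrasts share no library. A total of 30 genes rose in both, 2.28% of the knockout rises and 37.5% of the wild-type rises, and 22 fell in both, 0.903% and 35.5%. Genes that rose in both include Akr1c12, Stxbp6, Cox4i2, Podxl, Socs2, Apoa1 and Id1, and Hmox1 is among those that fell in both. Another 13 fell in the knockout and rose in wild type, among them Plk1 and Kif2c.

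**Figure D5:**
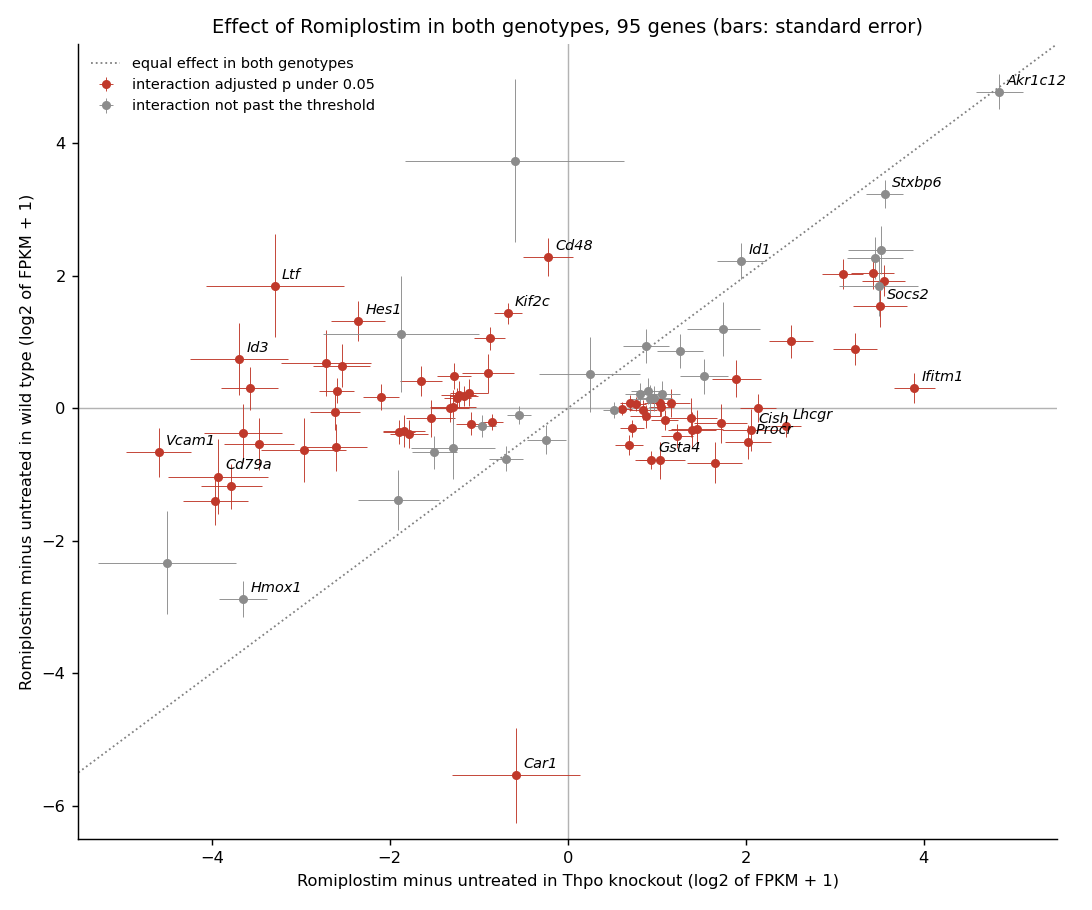
Log2 fold change of Romiplostim against untreated in Thpo knockout (horizontal) and in wild type (vertical) for 95 genes named in the text, with standard errors. Red points passed the interaction test; Akr1c12, Stxbp6 and Id1 lie near the line of equal effect, and Ifitm1, Procr and Cish lie near the horizontal axis.

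The treated knockout was also set beside untreated wild type, a comparison that shares the treated knockout libraries with the first. There 346 genes were higher (2.85%) and 749 lower (6.17%) in treated knockout cells, a total that ranged from 463 to 2547 when 1 library was left out. It was 92 with Y-linked RNA as a covariate and 124 in a fit of these 2 groups alone. Cd48 was higher in treated knockout cells (2.89, adjusted p = 0.00053). Ifitm1, Socs2, Procr and Il4 did not pass, with differences of -0.59, 0.81, -0.81 and -0.16. Procr did pass without treated knockout replicate 2 and untreated knockout replicate 3 (-1.11, adjusted p = 0.0082). Lhcgr was lower (-1.04, adjusted p = 0.0061). Of the stem cell genes 7 of 26 regulators and 7 of 21 surface genes were lower and 0 were higher, with medians of -0.72 and -0.64. Higher were 11 of 26 red cell genes, 7 of 18 pro-B and pre-B genes and 9 of 15 T and NK cell genes. Akr1c12 was 4.25 higher, and 27 of the 38 mitosis genes were higher, with a median of 0.88 against -0.09 over all genes. With the covariate Cd48 and Akr1c12 passed (adjusted p = 0.0055 and 0.0013), and 4 of the mitosis genes did. In that fit 1 regulator and 2 surface genes were lower and 3 T and NK cell genes were higher. Limma then called 0 of the red cell and 0 of the pro-B and pre-B genes, and Lhcgr had an adjusted p of 0.053.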

How the data were processed

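The authors deposited FPKM values per gene and library. The submitters' processing notes list TopHat2, Cufflinks 2.2.1 and the build mm10 and give no roles; the annotation and any filter are not given in the sources used here. Per the labels' protocols, cDNA came from the SMARTer Ultra Low kit. This kind of kit does not mark strand, so overlapping genes on opposite strands cannot be told apart. Of 35275 identifiers 34490 matched a symbol of GENCODE M21.

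Values were converted to log2(FPKM + 1), which understates changes of low genes. In R 4.3.3, limma 3.58.1 estimated the 4 group means over all 12 libraries, its variance prior following the mean level. Tests were two-sided, adjusted by Benjamini-Hochberg over the 12140 genes tested, with a threshold of 0.05. Contrasts were treated minus untreated within each genotype, their difference (the interaction), and treated knockout minus untreated wild type. Replicate numbers correlated at 0.41, 0.13 and 0.391 between treated and untreated wild-type libraries, in deviations from group means. A pairing of these libraries rests on that alone, and the main fit does not use it. Y-linked RNA differed within replicate number 1 (0.0221 FPKM treated, 22.5 untreated) and 2 (18.5 treated, 0.137 untreated). A fit with replicate number as a block covers all 12 libraries, knockout included. Its value is given beside a wild-type result where it changes the call. The script was tested on simulated data.

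Depth was estimated from the steps of low values; 48.5% to 53.3% of them were whole within 0.05 fragments, so counts were not recovered and no count test was run.

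The genes, the 61 lists and the naming rule were chosen with earlier results of these data known, and lists are described by counts and medians without a test. The rule took the 15 largest rises and 15 largest falls that passed, reached a mean of 5 FPKM in the higher group and did not overlap, the 10 largest interactions among such genes, every tested member of lists of at most 15 genes, up to 6 members per direction and 3 that did not pass from longer lists, and markers with Thpo. Of the genes it names, 95 are described; some genes are not reported here. Alternatives changed the pseudocount, filter, scaling, trend, weights, covariates and libraries.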

Additional observations from a re-analysis of the deposited data

Results flagged for a closer look

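Each gene named here was singled out because its response to Romiplostim differed between Thpo knockout and wild type (interaction, knockout effect minus wild-type effect on the log2(FPKM + 1) scale, limma adjusted p under 0.05). Over all genes tested 5.18% had a positive and 10.5% a negative interaction at this threshold. With presence of Y-linked RNA as a covariate 22 of the 67 genes passed, namely Socs2, Il4, Ifitm1, Ifitm2, Ifitm3, Lhcgr, Procr, Mllt3, Hes1, Vcam1, Pax5, Lgmn, Plk1, Kif2c, E2f2, Rrm2, Tnfaip3, Eif2ak3, Grb10, Gsta4, Acvrl1 and Hdc. Without treated knockout replicate 2 and untreated knockout replicate 3, 63 passed, the exceptions being Akr1c13, Vwf, Tmem40 and Ccne1 (adjusted p = 0.11, 0.052, 0.070 and 0.067).

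Positive values were found in the thrombopoietin feedback genes, at 1.97 for Socs2 and 2.39 for Cish, and in Ccnd2 at 1.24, Serpina3g at 1.5, Il4 at 2.33 and Lhcgr at 2.72. The Ifitm genes stood at 3.59 for Ifitm1, 1.02 for Ifitm2 and 2.14 for Ifitm3, and the other interferon genes at 1.02 for Bst2, 0.88 for Xaf1 and 1.0 for Rtp4. Stem cell genes had 2.53 for Procr, 1.53 for Ly6a, 1.83 for Hlf, 1.73 for Fgd5, 2.47 for Jam3, 1.65 for Mllt3, 1.76 for Mecom and 1.95 for Tcf15. Akr1c13 had 1.06, Akr1c19 1.39, Cox4i2 1.62, Gsta4 1.71, Grb10 1.26, Vwf 1.45, Tmem40 1.08 and Car1 4.96. Among mitochondrial and proteasome genes, Ndufa13 had 0.62, Mrpl13 0.70, Uqcrb 0.97 and Psma4 0.62.

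Negative values were found in macrophage and lysosome genes, at -3.93 for Vcam1, -2.56 for C1qa, -2.60 for Slc40a1, -3.87 for Lgmn, -1.5 for Ctsd and -1.35 for Neu1. B cell genes had -2.90 for Cd79a, -2.57 for Pax5 and -3.28 for Ebf1, and granulocyte and mast cell genes had -3.40 for Mpo, -5.14 for Ltf, -1.53 for Cpa3 and -3.18 for Hdc. Lepr had -2.34, H2-Ab1 -2.02 and Ifi204 -1.40. Genes of cell division had -1.94 for Plk1, -2.11 for Kif2c, -2.27 for E2f2, -1.39 for Ccne1, -2.06 for Rrm2 and -1.32 for Ccnd3. Signalling genes had -3.67 for Hes1, -4.44 for Id3, -1.35 for Lyn, -1.77 for Tnfaip3, -2.86 for Acvrl1, -1.33 for Tgfbr2, -1.40 for Eif2ak3 and -0.65 for Bcl2l11. Cd48 had -2.5, Itga2b -1.43, Serpine2 -2.93, Alas1 -1.43 and Gsr -0.86.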

How the results depend on the processing

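Under 12 other settings and 12 that left out 1 library each, 5 of the 3750 genes called in the knockout changed sign, 2 with quantile normalization and 3 with presence of Y-linked RNA as a covariate; none of the 5 is named in the text. The 3750 knockout calls (1315 higher, 2435 lower) became 764 (222 and 542) with presence of Y-linked RNA as a covariate, 2027 (727 and 1300) in a fit of the 6 knockout libraries alone and 1232 (297 and 935) at 2-fold or more, and quantile normalization gave 2401 higher. Leaving out 1 library gave 2391 to 4298 in all, 791 to 1553 higher and 1600 to 3030 lower, and leaving out treated replicate 2 with untreated replicate 3 gave 3140 lower. The 142 wild-type calls became 78 with a filter at 5 FPKM, 215 with none, 236 with a filter over all 12 libraries, 1568 with array weights, 297 without treated knockout replicate 2 and untreated knockout replicate 3, 498 in the wild-type libraries alone, and 39 to 326 without 1 library. The 1899 interactions became 4495 with array weights, 237 with the covariate, 1118 at 2-fold, 1026 to 2612 without 1 library and 2767 without the 2 libraries. The 1095 differences between treated knockout and untreated wild type became 708 with a filter at 5 FPKM, 2031 with array weights, 92 with the covariate, 2811 without the 2 libraries, 124 in those 2 groups alone, 421 at 2-fold and 463 to 2547 without 1 library. The 563 called list members became 145 with the covariate, 359 in the knockout alone, 265 at 2-fold and 375 to 608 without 1 library. The cause of these shifts was not tested, apart from the fewer libraries some fits used.

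Replicate numbers correlated at 0.194, 0.065 and 0.193 between treated and untreated knockout libraries, so they were not taken to pair these libraries. A fit with the replicate block, which spans all 12 libraries, gave 3726 knockout calls (1297 higher, 2429 lower), 113 wild-type calls and 1858 interactions. It also gave 1035 differences between treated knockout and untreated wild type, and 571 list members. With the block the interactions of Akr1c13, Itga2b and Lepr did not pass (adjusted p = 0.067, 0.055 and 0.055).

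Of genes that did not pass, some turned sign. With 1 or the 2 libraries left out, Kit ranged over -0.45 to 0.02, Cd48 over -0.51 to 0.02 (also 0.00), Car1 over -1.60 to 0.03 (also 0.00), Pf4 over -0.13 to 0.53 (also -0.06) and Igkc over -1.93 to 0.24. With array weights Cd48 was 0.01 and Igkc 0.90, and with the covariate Cd48 was 0.12 and Pf4 -0.27. A level of 3 fragments on 2 kb is 0.0422 to 0.0541 FPKM. Values below it can still be above 0, and it shifts with gene length, so it is not a detection limit for every gene. It covers counting error only.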
